A study of Mus musculus with 12 samples.

Results

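The 10 core circadian clock genes Arntl (also written Bmal1), Clock, Npas2, Per1, Per2, Per3, Cry1, Cry2, Nr1d1 and Nr1d2 were followed through RNA sequencing of mouse liver. They were taken by gene symbol from a table of 35275 genes, and all 10 had a row with a value in every library. The study asked how a high fat diet and the loss of the transcription factor Hnf4a change liver gene expression. It holds 12 libraries in 4 groups of 3, which the design text calls biological replicates. The groups were mice labelled Hnf4a liver knockout on a high fat diet (KOHF), wild type on a high fat diet (WTHF), Hnf4a liver knockout on vivarium chow (KOVC), and wild type on vivarium chow (WTVC). Vivarium chow is the standard feed of the animal facility. The labels used here give no promoter for the knockout, no deleted exon, no strain, age or sex, no length of feeding and no hour of collection. The limma adjusted p-values below set a difference between groups against the spread between libraries of the same group, pooled over the groups.

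The circadian clock is a feedback loop that runs in most cells. A pair of transcription factors, BMAL1 (from Arntl) with CLOCK or NPAS2, binds E-box sequences and switches on the Per and Cry genes, whose proteins return to the nucleus and repress that pair. A second loop runs through the nuclear receptors REV-ERB alpha and beta (Nr1d1 and Nr1d2), which the same pair switches on and which in turn repress Arntl. In liver the loop times much of glucose, lipid and bile acid metabolism, and the transcripts of its repressor and activator arms peak at different hours.

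The promoter windows that hold a motif of the clock network are shown first, as matches of sequence only. Binding to them was not measured here. RefSeq windows on GRCm38.p6, from 250 bases before to 50 bases after each annotated start, were held for 9 of the 10 members (13 windows). Both strands were searched for 4 motifs that do not overlap in these windows: the E-box CACGTG, the D-box TTATGTAA bound by DBP, TEF, HLF and NFIL3, the core TAGGTCA bound by ROR and REV-ERB proteins, and the cAMP response element TGACGTCA. The E-box stood in a Per1 window (chr11:69098699-69098998, plus strand) and in the Cry1 window (chr10:85185005-85185304, minus strand), starting at base -166 and at base -60 from the start site. Another Per1 window held none of the 4 motifs, nor did any window of Clock, Npas2, Cry2, Nr1d1 or Nr1d2. The D-box stood at bases -205 and -158 of the Per3 window (chr4:151044616-151044915, minus strand). The ROR and REV-ERB core stood at base 30 of an Arntl window (chr7:113207261-113207560, plus strand), and the cAMP response element stood in none. Capitals mark the motifs.
Per1: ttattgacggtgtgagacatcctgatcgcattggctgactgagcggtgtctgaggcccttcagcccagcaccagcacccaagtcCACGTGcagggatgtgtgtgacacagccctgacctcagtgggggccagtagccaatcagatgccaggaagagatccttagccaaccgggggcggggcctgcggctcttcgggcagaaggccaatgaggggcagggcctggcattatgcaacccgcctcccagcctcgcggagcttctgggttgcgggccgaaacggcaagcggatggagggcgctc
Cry1: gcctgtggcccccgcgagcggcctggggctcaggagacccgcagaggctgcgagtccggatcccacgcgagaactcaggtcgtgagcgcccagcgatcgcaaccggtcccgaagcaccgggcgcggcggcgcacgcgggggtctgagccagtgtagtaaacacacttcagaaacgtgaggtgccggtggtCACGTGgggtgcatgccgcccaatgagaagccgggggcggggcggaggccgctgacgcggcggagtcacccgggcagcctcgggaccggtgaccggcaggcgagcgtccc
Per3: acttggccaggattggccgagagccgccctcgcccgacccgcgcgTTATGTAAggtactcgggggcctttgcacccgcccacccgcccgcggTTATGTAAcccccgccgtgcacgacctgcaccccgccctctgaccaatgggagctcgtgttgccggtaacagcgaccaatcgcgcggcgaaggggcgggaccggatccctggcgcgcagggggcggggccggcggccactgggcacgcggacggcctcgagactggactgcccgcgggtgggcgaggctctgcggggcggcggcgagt
Arntl: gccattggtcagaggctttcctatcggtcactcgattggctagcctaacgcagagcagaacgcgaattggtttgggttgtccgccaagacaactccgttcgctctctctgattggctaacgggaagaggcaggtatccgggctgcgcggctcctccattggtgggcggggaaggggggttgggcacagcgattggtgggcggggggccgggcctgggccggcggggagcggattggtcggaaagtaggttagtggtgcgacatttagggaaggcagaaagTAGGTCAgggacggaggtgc
Of all 32851 windows in the table, 7.15% held the E-box, 0.938% the D-box, 2.61% the ROR and REV-ERB core and 1.79% the cAMP response element.

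Depth ran between 15705196 and 20311766 reads on genes per library. Values are FPKM as deposited, fragments scaled to gene length and to library depth. The 8 hepatocyte markers summed to between 30465 and 59679 FPKM in 10 libraries, but to 20141 FPKM in WTVC 2 and to 16.9 FPKM in WTVC 3. In WTVC 3, 37.5% of reads were mitochondrial, against 3.39% to 6.26% elsewhere, and 8 brown fat and adipocyte markers summed to 17369 FPKM, against at most 115 FPKM in the 10 libraries other than WTVC 2 and 3. The library labelled WTVC 3 thus held the defining markers of its labelled tissue near 0, although none of the 8 was at 0. Hnf4a did not follow the genotype labels: it stood at 108, 98.8 and 138 FPKM in the libraries labelled KOHF and at 133, 116 and 120 FPKM in those labelled WTHF. It stood at 158, 132 and 130 FPKM in the libraries labelled KOVC, against 126, 75.8 and 0.0973 FPKM in those labelled WTVC. A gene-level value would not show a loss of some exons only. Group names below are therefore those of the labels, and tests are given for 12 libraries and for the 10 libraries without WTVC 2 and 3. With 10 libraries WTVC is 1 library, which is assumed to vary like the libraries of the other groups.

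The members differed widely in level. Over the 10 libraries Nr1d1 averaged 30.4 ± 16.1 FPKM, Nr1d2 18.2 ± 4.65, Cry2 10.01 ± 2.06, Per1 7.15 ± 1.91, Per3 6.02 ± 2.03, Per2 4.78 ± 1.301, Cry1 2.14 ± 0.710, Clock 2.07 ± 0.863, Arntl 0.426 ± 0.284 and Npas2 0.0591 ± 0.0558 FPKM (SD, n = 10). Most neighbours in this order kept it in 10 of 10 libraries. The exceptions were Per1 over Per3 (7 of 10), Per3 over Per2 (8 of 10) and Cry1 over Clock (5 of 10), which did not separate beyond their spread. The REV-ERB, Cry2 and Period transcripts thus stood above those of the activators, with Arntl and Npas2 at the bottom.

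**Figure D1:**
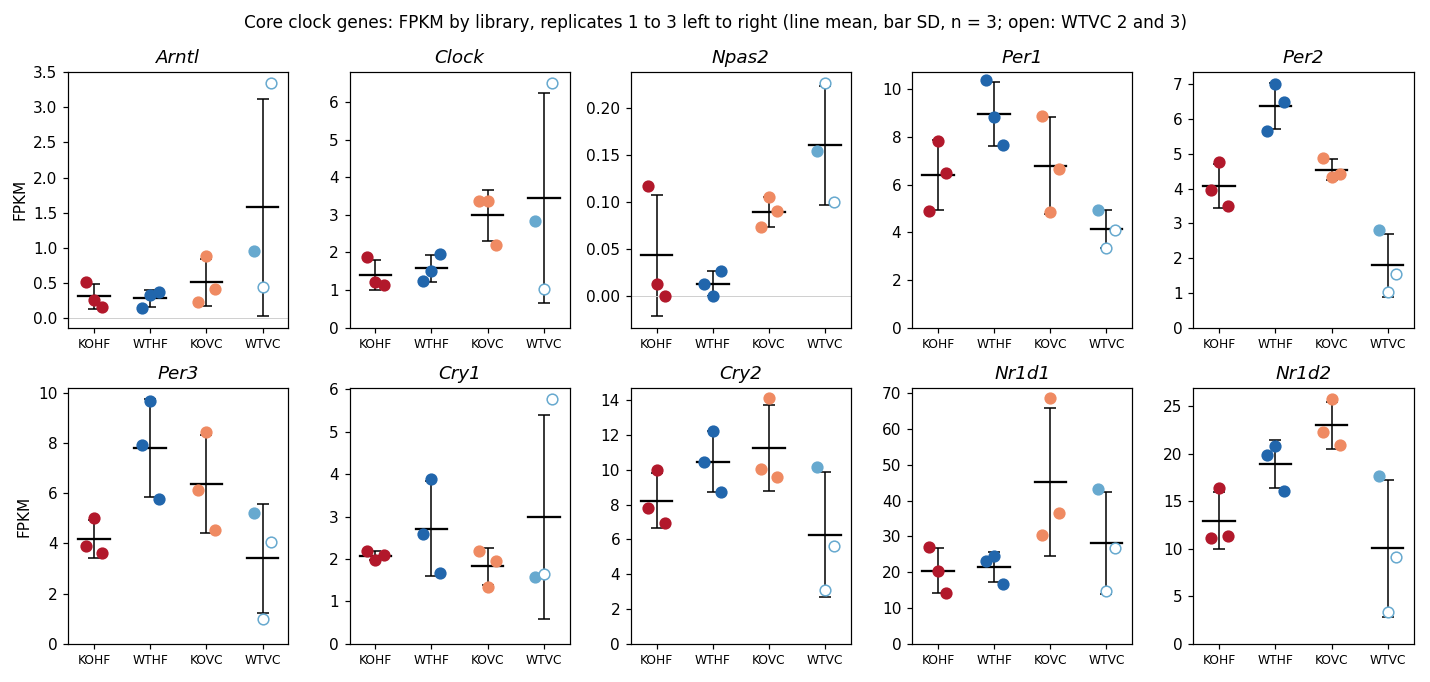
FPKM (vertical axis, linear) of the 10 core clock genes in the 12 libraries, 1 panel per gene. Points are libraries in the order of their replicate numbers, the thick line is the group mean and the bar its SD (n = 3), and open points are WTVC 2 and 3. Clock, Nr1d1 and Nr1d2 lie lower in all 3 KOHF points than in any KOVC point, and Per2 lies higher in all 3 WTHF points than in any point of the other groups.

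The activators were read at low depth. Arntl (ENSMUSG00000055116, chromosome 7, 113207465 to 113314122, plus strand on GRCm38) encodes BMAL1. It stood at 0.513, 0.252 and 0.156 FPKM in KOHF, at 0.144, 0.335 and 0.372 in WTHF, at 0.235, 0.882 and 0.417 in KOVC, and at 0.954, 0.439 and 3.34 in WTVC. The highest value by far was that of WTVC 3, with 160 reads, where the other libraries held 8 to 52 reads. Outside WTVC 2 and 3, KOVC 2, WTVC 1 and KOHF 1 were the 3 highest, and the KOHF, WTHF and KOVC groups overlapped. Arntl averaged 0.670 FPKM over 12 libraries and 0.426 over 10, so that it passed the 0.5 FPKM filter through WTVC 3. Its group comparisons are therefore given without a test, and counts of members below are over the 8 tested in both fits unless stated. The correlations of pairs and the closing list of alternatives include Arntl. In WTHF 1 the 8 reads left an exact 95% Poisson interval of 0.0622 to 0.284 FPKM, and in KOVC 2 the 52 reads left 0.658 to 1.16 FPKM. These intervals cover counting error only, as do all read floors below.

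Clock (ENSMUSG00000029238, chromosome 5, 76212177 to 76304548, minus strand) encodes the partner of BMAL1. It stood at 1.87, 1.20 and 1.12 FPKM in KOHF, at 1.25, 1.51 and 1.96 in WTHF, at 3.38, 3.37 and 2.20 in KOVC, and at 2.83, 1.01 and 6.51 in WTVC. Every KOVC value lay above every KOHF and WTHF value, and WTVC spanned the whole range. Npas2 (ENSMUSG00000026077, chromosome 1, 39193731 to 39363234, plus strand), a relative of Clock that can take its place, was close to the limit of detection. It had 9, 1 and 0 reads in KOHF, 1, 0 and 2 in WTHF, 5, 9 and 6 in KOVC, and 12, 18 and 7 in WTVC. In FPKM these were 0.117, 0.0123 and 0 in KOHF, 0.0123, 0 and 0.0269 in WTHF, 0.0731, 0.105 and 0.0902 in KOVC, and 0.154, 0.226 and 0.1002 in WTVC. A floor of 3 reads stood at 0.0401 FPKM in KOHF 3 and at 0.0405 FPKM in WTHF 2, and the exact 95% Poisson intervals of these counts of 0 reached 0.0494 and 0.0498 FPKM. No chow library had fewer than 5 Npas2 reads, whereas KOHF 1 was the only high fat library with more than 2.

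The Period genes encode repressors of the BMAL1 pair, and Per1 and Per2 also respond quickly to hormones and feeding signals. Per1 (ENSMUSG00000020893, chromosome 11, 69095217 to 69109960, plus strand) stood at 4.91, 7.85 and 6.48 FPKM in KOHF, at 10.4, 8.83 and 7.68 in WTHF, at 8.90, 4.86 and 6.65 in KOVC, and at 4.93, 3.34 and 4.10 in WTVC. The WTHF and WTVC values did not overlap, while KOHF and KOVC covered nearly the same range. Per2 (ENSMUSG00000055866, chromosome 1, 91415982 to 91459324, minus strand) stood at 3.96, 4.77 and 3.50 FPKM in KOHF, at 5.67, 7.001 and 6.48 in WTHF, at 4.88, 4.32 and 4.43 in KOVC, and at 2.80, 1.04 and 1.55 in WTVC. The 3 WTHF libraries were the highest of all 12 and the 3 WTVC libraries the lowest, WTVC 1 included. Per3 (ENSMUSG00000028957, chromosome 4, 151003652 to 151044665, minus strand) stood at 3.89, 5.02 and 3.62 FPKM in KOHF, at 7.92, 9.69 and 5.78 in WTHF, at 6.13, 8.44 and 4.53 in KOVC, and at 5.20, 0.9997 and 4.05 in WTVC. WTHF lay wholly above KOHF and above WTVC, and KOVC overlapped all 3 other groups. Per3 lies inside Camta1 on the same strand, which stood between 0.496 and 0.973 FPKM in all libraries.

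The cryptochromes are the partners of the Period proteins in repression. Cry1 (ENSMUSG00000020038, chromosome 10, 85131702 to 85185054, minus strand) stood at 2.18, 1.97 and 2.09 FPKM in KOHF, at 2.60, 3.89 and 1.66 in WTHF, at 2.18, 1.34 and 1.96 in KOVC, and at 1.57, 1.66 and 5.77 in WTVC. All groups overlapped, and the 2 highest values were WTVC 3 and WTHF 2. Cry2 (ENSMUSG00000068742, chromosome 2, 92403646 to 92434043, minus strand) stood at 7.78, 9.98 and 6.92 FPKM in KOHF, at 10.5, 12.2 and 8.72 in WTHF, at 10.1, 14.1 and 9.61 in KOVC, and at 10.2, 3.08 and 5.60 in WTVC. Its lowest values were those of WTVC 2 and 3, and the other 10 libraries overlapped between groups. Cry2 shares 23417 bases with D930015M05Rik on the opposite strand, which stood between 0 and 1.27 FPKM. Whether the counting used strand is not given in the sources used here.

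The REV-ERB genes were the most abundant members. Nr1d1 (ENSMUSG00000020889, chromosome 11, 98767932 to 98775333, minus strand) stood at 26.9, 20.2 and 14.2 FPKM in KOHF, at 23.2, 24.6 and 16.6 in WTHF, at 30.5, 68.7 and 36.4 in KOVC, and at 43.1, 14.6 and 26.7 in WTVC. KOVC lay wholly above KOHF and WTHF, with KOVC 2 the highest of the 12 libraries. Nr1d1 shares 1075 bases with Thra on the opposite strand, which stood at 7.87, 4.70 and 3.42 FPKM in KOHF, at 6.14, 5.25 and 5.66 in WTHF, at 7.60, 8.77 and 6.31 in KOVC, and at 8.44, 6.06 and 28.9 in WTVC. Nr1d2 (ENSMUSG00000021775, chromosome 14, 18204054 to 18239127, minus strand) stood at 11.2, 16.4 and 11.3 FPKM in KOHF, at 19.8, 20.8 and 16.1 in WTHF, at 22.2, 25.7 and 20.9 in KOVC, and at 17.7, 3.39 and 9.09 in WTVC. KOVC was the highest group, without overlap with any other, and WTVC 2 and 3 held the 2 lowest values.

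The diet was first compared within the knockout label (KOHF against KOVC), a comparison that uses no WTVC library for its difference. Clock, the partner of BMAL1, and Nr1d2, the REV-ERB beta gene, fell in the libraries labelled KOHF in the fit of 10 libraries. Clock averaged 1.40 ± 0.409 FPKM in KOHF and 2.98 ± 0.680 FPKM in KOVC, a ratio of means of 0.468 (SD, n = 3 each). Nr1d2 averaged 12.9 ± 2.97 FPKM in KOHF and 23.0 ± 2.5003 FPKM in KOVC, a ratio of 0.564 (SD, n = 3 each). Nr1d1, the REV-ERB alpha gene, had the lowest ratio, with 20.4 ± 6.37 FPKM in KOHF and 45.2 ± 20.5 FPKM in KOVC, a ratio of 0.452 (SD, n = 3 each), but did not pass. In bulk tissue, fewer cells of a type and less RNA per cell cannot be told apart.

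On the scale of log2(FPKM + 1), Clock differed by -0.73 (SE 0.19, limma adjusted p = 0.0445) and Nr1d2 by -0.80 (SE 0.17, limma adjusted p = 0.0340) over the 10 libraries. Nr1d1 differed by -1.06 (SE 0.32, limma adjusted p = 0.0616). Of the 8 members tested in that fit, 2 fell and none rose, while 8.65% of all genes were called and 6.85% were called lower. With 12 libraries none of the 8 passed in limma, where 0.155% of all genes were called; 1 of 8, Nr1d1, had an unadjusted p under 0.05, as had 7.54% of all genes. limma-voom on the recovered reads called 0 members with 12 libraries, where it called 12 of 12251 genes. With 10 libraries it called 2 members, where it called 1316 of 11870 genes.

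The other members differed less between KOHF and KOVC over the 10 libraries. Per3 differed by -0.49 (SE 0.23) and Cry2 by -0.41 (SE 0.19), with limma adjusted p of 0.186 and 0.185. Per1 differed by -0.06 (SE 0.22), Per2 by -0.13 (SE 0.14) and Cry1 by 0.13 (SE 0.22). The Per1 and Per2 values in KOHF and KOVC were thus within 1 SE of each other, unlike those of Clock and the REV-ERB pair. The members' median was -0.45, against -0.07 over all genes tested. Groups that did not overlap were seen for 3 of 8 members, Clock, Nr1d1 and Nr1d2, all lower in KOHF, and for 21.6% of all genes in that direction. Exact two-sided permutation tests gave p = 0.1 for each of the 3, the smallest that 3 against 3 allows. At an unadjusted p under 0.05, 3 of 8 members were lower over the 10 libraries, against 20.5% of all genes.

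The 2 calls rested on single libraries, on the filter and on libraries outside the compared groups. With only the KOHF and KOVC libraries in the fit neither passed: 0 of 8 members were called, where 33 of 11848 genes were. Without the filter neither passed with 10 libraries (limma adjusted p = 0.101 for Clock and 0.0679 for Nr1d2). The count was 0 without KOHF 1, KOHF 3, KOVC 1, KOVC 2, WTHF 1 or WTHF 2, 1 without KOHF 2 or WTHF 3, and 2 without KOVC 3, while the count over all genes ran between 19 and 1601. Without KOHF 1 it was 22 genes over all, against 1027 with it. The 8 exocrine pancreas markers summed to between 48.3 and 77.5 FPKM in KOHF, with none at 0, and to between 0.357 and 0.736 FPKM in KOVC, with 7 of 8 at 0. The 8 heart muscle markers summed to between 1.92 and 2.98 FPKM in KOHF and between 7.40 and 26.8 FPKM in KOVC. The part of these in the result was not tested. The hepatocyte sums overlapped, at 30465 to 43325 FPKM in KOHF and 37701 to 38726 FPKM in KOVC.

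**Figure D2:**
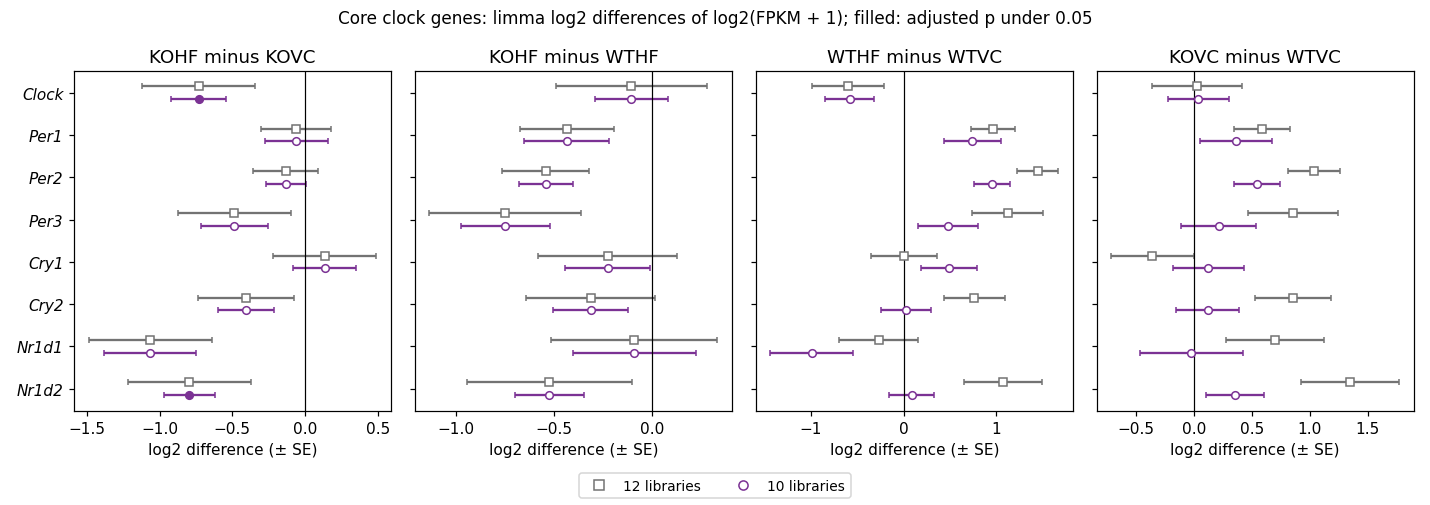
Differences of log2(FPKM + 1) with their SE (horizontal axis) for the 8 members tested by limma in both fits, in 4 comparisons. Gray squares are the fit of 12 libraries and purple circles that of 10 libraries, and filled symbols have an adjusted p under 0.05. Filled symbols appear for Clock and Nr1d2 in KOHF minus KOVC with 10 libraries; in the comparisons with WTVC the purple circles of Per3 and Nr1d2 lie nearer 0 than the gray squares.

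The genotype label was compared on the high fat diet (KOHF against WTHF), again without WTVC libraries in the difference. Per2 and Per3 were lower in all 3 libraries labelled KOHF than in any labelled WTHF, and no member passed the test. Per2 averaged 4.08 ± 0.643 FPKM in KOHF and 6.39 ± 0.669 FPKM in WTHF, a ratio of means of 0.638 (SD, n = 3 each). Per3 averaged 4.17 ± 0.743 FPKM in KOHF and 7.80 ± 1.95 FPKM in WTHF, a ratio of 0.535 (SD, n = 3 each). Both had an exact two-sided permutation p of 0.1, the smallest possible here. Nr1d2 averaged 12.9 ± 2.97 FPKM in KOHF and 18.9 ± 2.498 FPKM in WTHF, and its groups overlapped.

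Over the 10 libraries Per2 differed by -0.54 (SE 0.14), Per3 by -0.75 (SE 0.23) and Nr1d2 by -0.53 (SE 0.17), each with a limma adjusted p of 0.360. With 12 libraries the adjusted p was 1 for each, and 1 of 8 members, Per2, had an unadjusted p under 0.05. limma called 0 members with 12 and with 10 libraries, where 0.155% and 0.202% of all genes were called, and limma-voom called 0 with each. Unadjusted p-values under 0.05 were lower in KOHF for 3 of 8 members over the 10 libraries, against 7.68% of all genes, and 1.27% of all genes had one in either direction with 12 libraries. Non-overlapping groups, lower in KOHF, were seen for 2 of 8 members and 12.4% of all genes.

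The remaining members lay closer together on the high fat diet. Per1 differed by -0.44 (SE 0.22), Cry2 by -0.32 (SE 0.19), Cry1 by -0.23 (SE 0.22), Clock by -0.11 (SE 0.19) and Nr1d1 by -0.09 (SE 0.32) over the 10 libraries. Clock and Nr1d1, with low ratios between diets under the knockout label, were thus within 1 SE of each other between genotypes on the high fat diet. All 8 members tested had a negative difference, and their median was -0.38, against -0.03 over all genes. Hepatocyte marker sums were also lower without overlap, at 30465 to 43325 FPKM in KOHF and 51016 to 59679 FPKM in WTHF. The exocrine pancreas markers summed to 48.3 to 77.5 FPKM in KOHF and to 0.481 to 0.733 FPKM in WTHF. The heart muscle markers summed to 1.92 to 2.98 FPKM in KOHF and to 12.5 to 70.1 FPKM in WTHF. The part of these 3 marker lists in the differences was not tested.

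The diet within the wild-type label (WTHF against WTVC) gave the highest Period values of the study. Per2 averaged 6.39 ± 0.669 FPKM in WTHF and 1.79 ± 0.904 FPKM in WTVC, a ratio of means of 3.56 (SD, n = 3 each). Per1 averaged 8.97 ± 1.36 FPKM in WTHF and 4.12 ± 0.797 FPKM in WTVC, and Per3 averaged 7.80 ± 1.95 FPKM in WTHF and 3.42 ± 2.17 FPKM in WTVC (SD, n = 3 each). The 3 Period genes did not overlap between these groups, and none passed the test. Hepatocyte marker sums were 51016 to 59679 FPKM in WTHF, against 45670 FPKM in WTVC 1, 20141 FPKM in WTVC 2 and 16.9 FPKM in WTVC 3, and their part in these differences was not tested.

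With 12 libraries Per2 differed by 1.45 (SE 0.22), Per3 by 1.12 (SE 0.39), Nr1d2 by 1.08 (SE 0.42), Per1 by 0.96 (SE 0.24) and Cry2 by 0.76 (SE 0.33). The limma adjusted p ran between 0.307 and 0.328 for these 5. They were 5 of 8 members with an unadjusted p under 0.05, against 14.7% of all genes, while over the 10 libraries there were 2 of 8, Per1 and Per2, against 2.39% of all genes. Against WTVC 1 alone Per2 still differed by 0.96 (SE 0.19, limma adjusted p = 0.737) and Per1 by 0.74 (SE 0.31), but Per3 by 0.48 (SE 0.32). Cry2 then differed by 0.03 (SE 0.27) and Nr1d2 by 0.09 (SE 0.25), and Nr1d1 by -0.99 (SE 0.45).

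Called members numbered 0 with 12 libraries by limma and by limma-voom, where limma called 0% of all genes, and 0 with 10 libraries by both, where limma called 0.0253%. Non-overlapping groups were higher in WTHF for 3 of 8 members and 6.82% of all genes. The members' median was 0.86 with 12 libraries and 0.28 with 10, against 0.02 and 0.01 over all genes. Without WTVC 1, which leaves only the 2 libraries that stood apart, 5 of the 9 members tested (Arntl included) passed. So did 2441 of all 12285 genes tested.

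The genotype label on chow (KOVC against WTVC) showed higher Per2 and Nr1d2 in all 3 libraries labelled KOVC, and again no member passed. Per2 averaged 4.55 ± 0.298 FPKM in KOVC and 1.79 ± 0.904 FPKM in WTVC, and Nr1d2 averaged 23.0 ± 2.5003 FPKM in KOVC and 10.05 ± 7.18 FPKM in WTVC (SD, n = 3 each). Hepatocyte marker sums were 37701 to 38726 FPKM in KOVC, against 45670 FPKM in WTVC 1, 20141 FPKM in WTVC 2 and 16.9 FPKM in WTVC 3. Their part in these differences was not tested. With 12 libraries Nr1d2 differed by 1.35 (SE 0.42), Per2 by 1.04 (SE 0.22), Per3 by 0.86 (SE 0.39), Cry2 by 0.85 (SE 0.33) and Per1 by 0.59 (SE 0.24), with limma adjusted p between 0.195 and 0.237. These 5 of 8 members had an unadjusted p under 0.05, as had 21.1% of all genes. Over the 10 libraries 1 of 8, Per2, had one, as had 2.74% of all genes.

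Against WTVC 1 alone the differences were smaller for all 5. Per2 differed by 0.55 (SE 0.19), Per1 by 0.36 (SE 0.31), Nr1d2 by 0.36 (SE 0.25), Per3 by 0.21 (SE 0.32) and Cry2 by 0.12 (SE 0.27), each with a limma adjusted p of 1. Called members numbered 0 with 12 libraries, by limma and by limma-voom, where limma called 0% of all genes, and 0 with 10 libraries by both, where limma called 0.0168%. Non-overlapping groups, higher in KOVC, were seen for 2 of 8 members and 12.4% of all genes. The members' median was 0.78 with 12 libraries and 0.17 with 10, against 0.08 and 0.06 over all genes. Without WTVC 1, 3 of the 9 members tested passed, as did 2985 of all 12285 genes tested.

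Whether the genotype difference itself differed between diets was read from the interaction, the KOHF minus WTHF difference less the KOVC minus WTVC difference. Per2 had -1.58 (SE 0.31, limma adjusted p = 0.224) with 12 libraries and -1.09 (SE 0.24, limma adjusted p = 0.457) with 10. Per2 was lower in every KOHF than WTHF library and higher in every KOVC than WTVC library, WTVC 1 included. The part of the hepatocyte marker differences in the interaction was not tested. Nr1d2 had -1.87 (SE 0.60) with 12 libraries and -0.88 (SE 0.30) with 10, Per3 -1.61 (SE 0.55) and -0.97 (SE 0.39), Cry2 -1.17 (SE 0.47) and -0.43 (SE 0.33), and Per1 -1.02 (SE 0.34) and -0.80 (SE 0.38). These 5 of 8 members had an unadjusted p under 0.05 with 12 libraries, as had 16.6% of all genes, and 3 of 8, Per2, Per3 and Nr1d2, had one with 10 libraries, as had 10.3% of all genes. No member passed by limma or by limma-voom with 12 or with 10 libraries, where limma called 0.122% and 0.0842% of all genes. The members' median was -1.10 and -0.62, against -0.10 and -0.09 over all genes. Without WTVC 1, 4 of the 9 members tested passed, as did 2267 of all 12285 genes tested.

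The members also varied between libraries of 1 group. The deviations of log2(FPKM + 1) from the mean of the 10 libraries placed KOVC 2 at 1.29 for Nr1d1, 0.42 for Arntl and -0.44 for Per1. WTVC 1 stood at 0.63 for Nr1d1, 0.48 for Arntl and -0.42 for Per1, and KOHF 1 at -0.03, 0.11 and -0.43, above KOHF 2 and 3 for Nr1d1 and Arntl and below both for Per1. In KOHF, WTHF and KOVC alike, the library with the highest Arntl had the lowest Per1. The log2(FPKM + 1) of Arntl less that of Nr1d1 was -4.20, -4.09 and -3.71 in KOHF, -4.40, -4.26 and -3.68 in WTHF, -4.67, -5.21 and -4.72 in KOVC, and -4.50, -3.44 and -2.68 in WTVC. On this scale the value was lower in every KOVC library than in any other library. The added 1 was larger than every Arntl value outside WTVC 3, so this order depends on it. Without it the ratio of Arntl to Nr1d1 was lower in WTHF 1 (0.144 and 23.2 FPKM) than in any KOVC library.

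**Figure D3:**
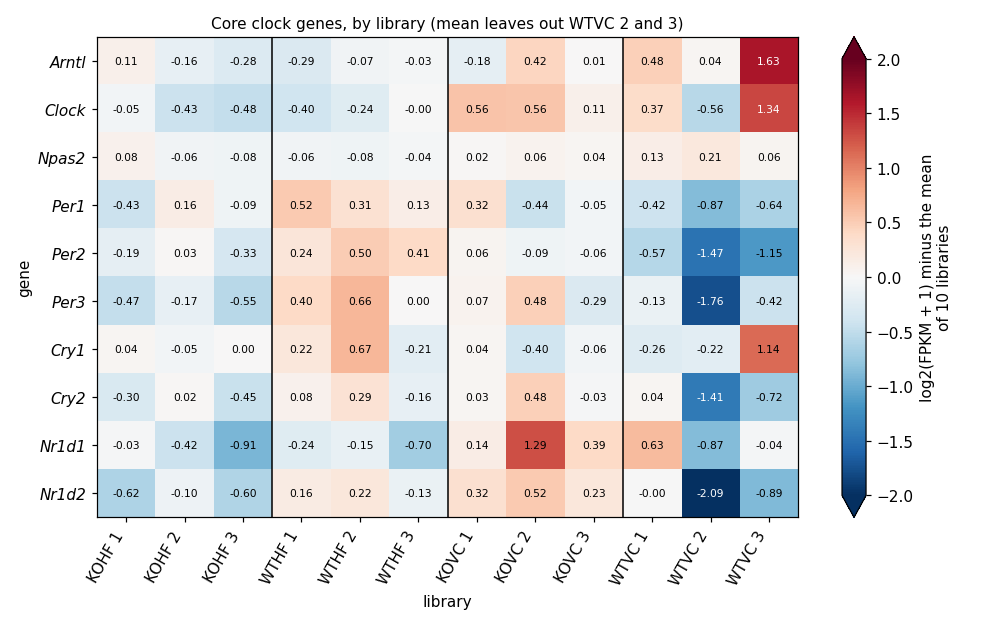
Deviation of log2(FPKM + 1) of each member (rows) in each of the 12 libraries (columns) from its mean over the 10 libraries without WTVC 2 and 3. Red is above and blue below that mean, and the scale is limited to 2 in each direction. KOVC 2 holds the highest Nr1d1 deviation at 1.29, and WTVC 2 the lowest of the map, -2.09 for Nr1d2.

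Pairs of members were correlated over the 10 libraries in log2(FPKM + 1), a step chosen after the values had been seen. The 45 pairs share libraries, and 31 had a positive Pearson's r. By permutation with Benjamini-Hochberg adjustment over 45 pairs, 6 had an adjusted p under 0.05 by r and 1 by Spearman's rho. An unadjusted p under 0.05 by r was held by 16. Libraries were shuffled across groups, so a difference between groups that 2 genes share can by itself give a low p. Cry2 and Nr1d2 had r = 0.89 (permutation p = 6.40e-04, adjusted p = 0.0232) and rho = 0.76 (permutation p = 0.0151, adjusted p = 0.0971). Per3 and Cry2 had r = 0.87 (permutation p = 0.00103, adjusted p = 0.0232) and rho = 0.89 (permutation p = 0.00111, adjusted p = 0.0499). In both pairs a library high for a gene was also high for its partner within groups. The within-group r over the 9 libraries of KOHF, WTHF and KOVC was 0.90 and 0.94. Without the 2 libraries farthest from the median of the first-named gene, r was 0.78 and 0.77.

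The other pairs joined Arntl, Npas2, Clock, Nr1d1 and Per1. Arntl and Npas2 had r = 0.83 (permutation p = 0.00204, adjusted p = 0.0306) and rho = 0.79 (permutation p = 0.00870, adjusted p = 0.0971). Both were read at low depth in these libraries, with 8 to 52 reads for Arntl and 0 to 12 for Npas2. Npas2 passed the filter in neither fit. Arntl and Per1 had r = -0.81 (permutation p = 0.00459, adjusted p = 0.0424) and rho = -0.77 (permutation p = 0.0126, adjusted p = 0.0971), the only negative pair of the 6. Arntl and Nr1d1 had r = 0.79 (permutation p = 0.00565, adjusted p = 0.0424) and rho = 0.70 (permutation p = 0.0299, adjusted p = 0.137). Without the 2 libraries farthest from the Arntl median, Arntl and Nr1d1 had r = 0.44, where Arntl and Per1 kept -0.64 and Arntl and Npas2 0.69. Clock and Nr1d1 had r = 0.79 (permutation p = 0.00566, adjusted p = 0.0424) and rho = 0.81 (permutation p = 0.00723, adjusted p = 0.0971). Clock and Nr1d1 kept r = 0.77 without the 2 libraries farthest from the Clock median. Within groups Clock and Nr1d1 had r = 0.28, where Arntl and Per1 had -0.91, Arntl and Nr1d1 0.79 and Arntl and Npas2 0.66.

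**Figure D4:**
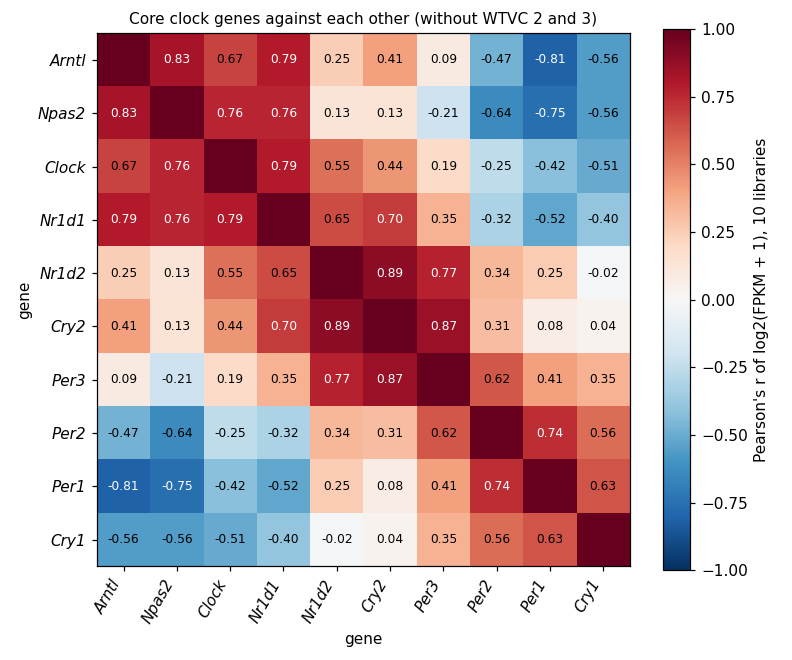
Pearson's r of log2(FPKM + 1) between each pair of the 10 members over the 10 libraries without WTVC 2 and 3, with genes on both axes. Red is positive and blue negative. Arntl, Npas2, Clock and Nr1d1 form a block of values from 0.67 to 0.83, and Arntl against Per1 is the lowest at -0.81.

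The genes whose pattern over the 10 libraries was most like each member were listed by Pearson's r among up to 11035 genes, as a description over 10 points that share libraries. Per1 was nearest to Usp2 (r = 0.94), a clock-controlled ubiquitin protease, then to Tor1a (0.93) and Ccnd3 (0.92). Per2 was nearest to H2-T24 (0.93), Leprel2 (0.92) and Rhobtb1 (0.91), and Per3 to Fzd8 (0.94), Prex2 (0.93) and Tenc1 (0.92). Cry1 was nearest to Agpat1 (0.89), Mylpf (0.87) and C1qtnf9 (0.87), and Cry2 to Dhtkd1 (0.97), Khnyn (0.95) and Slc7a2 (0.95). Usp2 was the only gene of the clock lists among these.

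For the REV-ERB genes and the activators no clock gene ranked among the nearest 3. Nr1d1 was nearest to Nr6a1 (0.97), Hsd3b2 (0.96) and Gabpb1 (0.96), and Nr1d2 to Crkl (0.98), Txlng (0.97) and Chuk (0.97). Arntl was nearest to Lgals9 (0.88), Kctd18 (0.87) and Cep57l1 (0.86), and Clock to Ski (0.95), Clec16a (0.95) and Fbxo38 (0.95). Npas2, with 0 to 12 reads in these libraries, was nearest to Lnx2 (0.98), Sgk2 (0.94) and Inca1 (0.91).

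A list of 20 other clock genes, the outputs and modifiers of the loop, was read in the same fits. Rorb was listed at 0 in all 12 libraries and 19 were tested. Bhlhe41 (DEC2, a repressor of the BMAL1 pair) was the only one called, in KOHF against KOVC over the 10 libraries. It stood at 0.567, 1.68 and 0.997 FPKM in KOHF and at 3.11, 3.65 and 2.88 FPKM in KOVC, and fell by 1.05 on the log2 scale (SE 0.20, limma adjusted p = 0.0290). This was 1 of 19 genes, against 8.65% of all genes, and the list had no call without KOHF 1, KOHF 3, KOVC 1, KOVC 2 or WTHF 2, nor without the filter. Its values were 1.59, 1.17 and 1.07 FPKM in WTHF and 2.72, 0.320 and 3.35 FPKM in WTVC. In the 10 libraries without WTVC 2 and 3, Bhlhe41 was thus lower in every high fat than in every chow library. Among all 12 libraries the lowest value was that of WTVC 2, a chow library. Bhlhe40 (DEC1), at 21.1 to 54.4 FPKM in KOHF and 37.4 to 74.4 FPKM in KOVC, overlapped.

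Of the factors that bind the D-box, Dbp, an activator driven directly by the BMAL1 pair, stood at 81.4, 72.5 and 76.7 FPKM in KOHF and 78.2, 76.1 and 81.0 FPKM in KOVC, a difference of -0.03 (SE 0.16, limma adjusted p = 0.921). Tef stood at 31.1, 43.2 and 34.4 FPKM in KOHF and 55.8, 50.8 and 48.6 FPKM in KOVC, a difference of -0.51 (SE 0.17, limma adjusted p = 0.0858). Hlf stood at 6.40, 9.14 and 7.09 FPKM in KOHF and 10.9, 12.5 and 9.29 FPKM in KOVC, a difference of -0.48 (SE 0.16, limma adjusted p = 0.0843). Tef and Hlf did not overlap between these groups, and Dbp did. Nfil3, the repressor at the same sites, stood at 6.78, 6.85 and 7.60 FPKM in KOHF and 4.80, 6.002 and 4.90 FPKM in KOVC, a difference of 0.38 (SE 0.16, limma adjusted p = 0.154).

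Rora, an activator of Arntl, stood at 2.28, 4.52 and 3.12 FPKM in KOHF and 5.71, 6.80 and 4.96 FPKM in KOVC, a difference of -0.69 (SE 0.22, limma adjusted p = 0.0700). Every KOHF value of Rora lay below every KOVC value. Ciart, a repressor of the BMAL1 pair, ranged from 4.69 to 18.7 FPKM in KOHF and from 7.16 to 11.9 FPKM in KOVC, a difference of -0.03 (SE 0.41). Like Per1, Ciart was lowest of its group in KOHF 1 and KOVC 2.

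In the other comparisons the list held no called gene by limma with 12 or with 10 libraries. Between KOHF and WTHF, 4 of 19 were lower at an unadjusted p under 0.05 over the 10 libraries, against 7.68% of all genes, and none was higher. Tef had 65.6, 65.8 and 47.5 FPKM and Hlf 11.1, 10.1 and 12.6 FPKM in WTHF, each above every KOHF value. Between KOVC and WTVC with 12 libraries, 7 were higher and 1 lower at an unadjusted p under 0.05, against 21.1% of all genes in either direction. With 10 libraries 2 were higher and 1 lower, against 2.74% of all genes. Between WTHF and WTVC 9 were higher with 12 libraries, against 14.7% of all genes, and 5 were higher and 1 lower with 10, against 2.39% of all genes. Dbp had 73.7, 46.4 and 6.51 FPKM in WTVC, the last in the library whose hepatocyte markers were near 0. The list's medians for KOVC against WTVC were 0.83 with 12 libraries and 0.19 with 10.

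**Figure D5:**
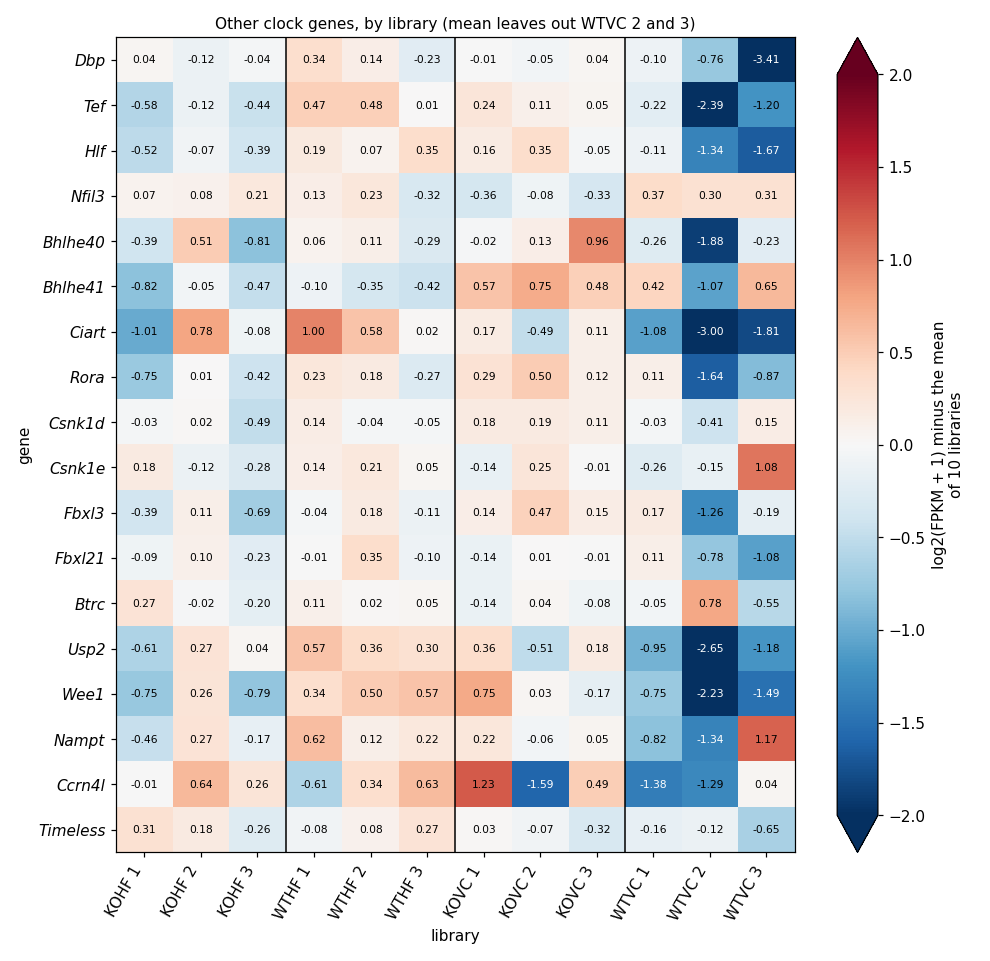
Deviation of log2(FPKM + 1) of 18 other clock genes (rows; Ccrn4l is Noct) in each of the 12 libraries (columns) from the mean over the 10 libraries without WTVC 2 and 3. Red is above and blue below that mean, and the scale is limited to 2 in each direction. Dbp stays between -0.23 and 0.34 in those 10 libraries, and the lowest value of the map is -3.41 for Dbp in WTVC 3.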

How the data were processed

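RNA from 12 libraries given as mouse liver was sequenced, 3 for each of 4 groups, which were taken from the genotype and treatment labels. The authors deposited FPKM values with gene lengths and coordinates for 35275 genes. The submitters' processing notes name GRCm38 and mm10 as builds, and as tools HTSeq 0.6.1, DESeq2 (version written as 2), STAR, TopHat and CASAVA. The aligner behind these values, the annotation, strand use and filters are not stated. All columns were mapped by sample title, and 27 symbols that had become dates were restored from 34490 matched identifiers.

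FPKM times gene length gave whole multiples of 1 read for 100% of values, within 0.1 of a read, which gave back the reads. They summed to 15705196 to 20311766 per library. The floor of 3 reads is a setting, and it lies below the exact 95% Poisson upper limit of a count of 0.

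Genes with a mean of at least 0.5 FPKM over the libraries of a fit were tested as log2(FPKM + 1), a scale that understates changes of low genes. Arntl (mean 0.670) passed only with 12 libraries, through WTVC 3, and Npas2 (mean 0.0764) in neither fit. The 4 group means were fitted at once with limma 3.58.1 in R 4.3.3, using its trended empirical Bayes and Benjamini-Hochberg adjustment over 12251 genes (11870 with 10 libraries) and a threshold of 0.05. The same code was tested on simulated data. FPKM of single members was also set between groups in an exact two-sided permutation test, and pairs were correlated with 100000 permutations (SciPy 1.17.1, Python 3.11.15). Figures were drawn with matplotlib 3.10.9. Alternatives were a pseudocount of 0.1, no filter, TPM, median-of-ratios, fits of the compared groups only, a replicate block, limma-voom on reads, fits of 10 and 9 libraries (the 9 also without KOHF 1), and leaving out each library. Fits of 10 libraries without a filter, by limma-voom or without 1 further library were added after seeing the data.

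Named were all 10 members, Hnf4a, listed clock genes (1 is not reported here) plus any other called, and for each member the 3 genes most like it, leaving out predicted and clone-named genes. Usp2 is also among the nearest genes. The members, the lists and the tests were chosen with earlier results of these data known.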

Additional observations from a re-analysis of the deposited data

Results flagged for a closer look

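In each case below the difference made by genotype or by diet ran one way in every library of a pair of groups. It ran the other way in every library of the other pair, and the test of the difference itself missed the threshold. Only the clock genes were searched for this pattern, and the share of all genes that show it was not counted. In single comparisons, 12.4% of all genes were lower without overlap in KOHF than WTHF, and 12.4% higher in KOVC than WTVC. Per2 was lower in every library labelled KOHF than in every WTHF library and higher in every KOVC than WTVC library, with an interaction of -1.58 on the log2 scale (SE 0.31, limma adjusted p = 0.224). Without WTVC 2 and 3 it was -1.09 (limma adjusted p = 0.457).

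Among the other clock genes, Tef had an interaction of -2.10 and Hlf one of -1.73, with opposite directions both for knockout against wild type and for high fat against chow. Usp2 had -2.11 and Wee1 -2.59 for knockout against wild type. Nfil3 had 0.69 for high fat against chow. The limma adjusted p was 0.289 for each of these 5. Without WTVC 2 and 3 the values were -1.05 for Tef, -0.79 for Hlf, -1.47 for Usp2, -1.85 for Wee1 and 0.74 for Nfil3, each with an adjusted p of 0.457, and each kept its direction against WTVC 1 alone.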

How the results depend on the processing

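Log2 differences of members kept their direction and side of the threshold in 486 alternatives that left out no single library, and changed sign in 21. Cry1 changed sign in KOVC against WTVC, to 0.13 with 10 or 9 libraries or 10 without a filter, 0.20 with 10 and a replicate block and 0.17 with limma-voom on 10. In the interaction it was -0.0946 in TPM, -0.35 with 10 libraries with or without the filter, -0.43 with 10 and the block, -0.38 with 9 and -0.47 with limma-voom on 10; in WTHF against WTVC it was -0.0199 by median-of-ratios. Nr1d1 in KOVC against WTVC became -0.0212 with 10 or 9 libraries or 10 without a filter, and -0.0362 with limma-voom on 10. Per1 in KOHF against KOVC became 0.0475 by median-of-ratios and 0.0930 with 9 libraries. Clock in KOVC against WTVC became -0.0684 by median-of-ratios, Cry2 in WTHF against WTVC -0.0302 with 10 libraries and the block, and Arntl in KOHF against WTHF -0.0137 in TPM. The cause was not tested. In TPM the median of all genes was -0.23 in KOHF against KOVC, where it was -0.06 as deposited, and -0.37 in the interaction, where it was -0.10.

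Counts of all genes past the threshold moved as follows. KOHF against WTHF had 19, and 30 with 10 libraries and no filter. KOHF against KOVC had 19, but 31 without a filter, 33 with those groups only, 12 with limma-voom, 1027 with 10 libraries, 120 with 10 and no filter and 1316 with limma-voom on 10. KOVC against WTVC had 0, but 4 without a filter, 2 with 10 or 9 libraries, 179 with 10 and no filter and 1 with limma-voom on 10. WTHF against WTVC had 0, but 3 with 10 or 9, 186 with 10 and no filter and 2 with limma-voom on 10. The interaction had 15, but 6 with a pseudocount of 0.1, 25 without a filter, 0 with limma-voom, 167 with 10 and no filter and 3 with limma-voom on 10. The 2 members called in KOHF against KOVC with 10 libraries were 2 with limma-voom and 0 without the filter.

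Same-numbered libraries did not deviate together (18 pairs, r between -0.50 and 0.13, with 2 over 0.1). Only 2 of 12 libraries correlated best with their own number, so no pairing by number was seen. A weak shared effect could be missed by this check, in which WTVC 2 and 3 stood apart. With the replicate block, the interaction had 4 genes, and with the block and 10 libraries it had 3. With 10 libraries the block gave 366 genes and 1 member in KOHF against KOVC, 1 gene in KOVC against WTVC and 1 in WTHF against WTVC.

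Leaving out each library in turn, genes past the threshold ran between 7 and 22 for KOHF against WTHF, 7 and 26 for KOHF against KOVC, 0 and 2985 for KOVC against WTVC, 0 and 2441 for WTHF against WTVC, and 5 and 2267 for the interaction. The highest 3 of these, without WTVC 1, rest on WTVC 2 and 3 alone. Members ran between 0 and 3 for KOVC against WTVC, 0 and 5 for WTHF against WTVC and 0 and 4 for the interaction, all at their highest without WTVC 1, and stayed at 0 in the other 2. With 10 libraries, genes ran between 19 and 1601 and members between 0 and 2 for KOHF against KOVC. Differences that changed sign ran between -0.0893 and 0.10 for Arntl and -0.30 and 0.14 for Nr1d1 in KOHF against WTHF, and between -0.25 and 0.13 for Per1 in KOHF against KOVC. They ran between -0.45 and 0.50 for Clock and -0.60 and 0.10 for Cry1 in KOVC against WTVC, -0.23 and 0.47 for Cry1 and -0.66 and 0.0895 for Nr1d1 in WTHF against WTVC, and -0.61 and 0.34 for Clock and -0.33 and 0.37 for Cry1 in the interaction. Depth limited Npas2, at 0 to 18 reads, and Arntl, at 8 to 160 reads.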
